A study of Mus musculus with 19 samples.

Results

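The genes described are 10 enzymes of the salvage, phosphorylation and breakdown of NAD, chosen by name and function from the 26506 genes of the count table. They are the salvage enzymes Nampt, Nmnat1, Nmnat3, Naprt and Nmrk1, the NAD kinases Nadk and Nadk2, the nicotinamide methyltransferase Nnmt, and the NAD glycohydrolases Cd38 and Bst1, and all 10 were found and tested in every comparison. Their RNA was measured by sequencing of poly(A) RNA from the whole kidneys and livers of male mice. The knockout mice (KO, labelled mH2A1.1_KO) were homozygous for the loss of macroH2A1.1, a splice form of the histone variant macroH2A1 that is encoded by H2afy and binds ADP-ribose through its macrodomain. Its alternative exon had been flanked by loxP sites and removed by treating zygotes with Cre enzyme, so that every tissue carries the deletion, and the wild types (WT) came from matings of heterozygous mice. All mice had a C57BL/6J background. The age of the mice and the diet each received, standard or ketogenic, were not given in the sources used here. The kidneys came from 5 knockouts and 5 wild types, the livers from 5 knockouts and 4 wild types. The knockouts carried the mouse numbers 13, 14, 15, 16 and 18 and the wild types 19, 20, 22, 23 and 24, and the liver of mouse 23 was not analysed here.

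NAD carries electrons in metabolism and is also consumed by enzymes that split off nicotinamide, among them poly(ADP-ribose) polymerases, sirtuins and CD38. Salvage rebuilds it. NAMPT turns nicotinamide into nicotinamide mononucleotide in the rate-limiting step of that route, NMRK1 makes the same product from nicotinamide riboside, NAPRT starts from nicotinic acid, and the NMNAT enzymes complete the dinucleotide, NMNAT1 in the nucleus and NMNAT3 in mitochondria. NADK in the cytosol and NADK2 in mitochondria phosphorylate NAD to NADP, while NNMT methylates nicotinamide and so takes it out of salvage. The ADP-ribose that macroH2A1.1 binds is made from NAD, which is the link between these enzymes and the knockout.

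Upstream sequences are shown for 4 members with opposite tissue patterns, Nampt and Nmnat3 with more RNA in kidney and Nadk and Cd38 with more RNA in liver. They are the 250 bases before a RefSeq gene start on GRCm38.p6, written 5′ to 3′ on the gene's strand. Such windows were found for 6 of the 10 members, the other two being Nmnat1 and Nmrk1. Capitals mark a GC box (GGGCGG), an E-box (CACGTG) or a CCAAT box (CCAAT), read on both strands. The Nampt window lies at chr12:32820085-32820334 (+), the Nmnat3 window at chr9:98296320-98296569 (+), that of the downstream of 2 Nadk starts at chr4:155563565-155563814 (+), and the Cd38 window at chr5:43868559-43868808 (+).
Nampt: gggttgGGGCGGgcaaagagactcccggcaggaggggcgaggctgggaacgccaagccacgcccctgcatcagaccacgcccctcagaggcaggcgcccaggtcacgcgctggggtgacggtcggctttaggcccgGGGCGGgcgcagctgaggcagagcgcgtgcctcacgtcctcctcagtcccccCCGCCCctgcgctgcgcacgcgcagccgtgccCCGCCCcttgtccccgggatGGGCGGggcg
Nmnat3: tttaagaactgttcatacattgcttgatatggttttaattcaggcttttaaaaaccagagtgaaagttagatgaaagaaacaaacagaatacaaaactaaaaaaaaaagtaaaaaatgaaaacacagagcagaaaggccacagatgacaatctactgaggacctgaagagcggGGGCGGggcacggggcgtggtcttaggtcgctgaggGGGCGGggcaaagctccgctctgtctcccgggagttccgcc
Nadk: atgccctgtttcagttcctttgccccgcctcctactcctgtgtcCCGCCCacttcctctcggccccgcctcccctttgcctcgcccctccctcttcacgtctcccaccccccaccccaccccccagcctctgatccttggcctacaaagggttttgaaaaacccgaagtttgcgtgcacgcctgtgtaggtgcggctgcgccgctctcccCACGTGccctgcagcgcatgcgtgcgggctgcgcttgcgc
Cd38: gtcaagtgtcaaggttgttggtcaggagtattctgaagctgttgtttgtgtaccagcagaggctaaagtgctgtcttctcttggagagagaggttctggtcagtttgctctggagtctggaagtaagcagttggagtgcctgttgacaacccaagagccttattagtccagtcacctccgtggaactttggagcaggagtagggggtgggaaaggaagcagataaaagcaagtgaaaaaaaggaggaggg
The Nampt window held 5 GC boxes and a GC content of 75.6%, with 27 CG dinucleotides. The Nmnat3 window held 2 GC boxes and a GC content of 45.6%. The Nadk window held 1 GC box and 1 E-box, the latter 40 bases before the start, at a GC content of 66%. None of these letters were found in the Cd38 window, which had a GC content of 48.8% and 1 CG dinucleotide. Among 32851 RefSeq windows of the same length, 32.7% held a GC box, 6.02% an E-box and 33.8% a CCAAT box, and the median GC content was 52.4%. No member window held the letters of a D-box (TTATGNAA), a TATA box (TATAAA), an HNF4 site (CAAAGTCCA) or the full palindromic HNF1 site, which were found in 3.07%, 12.4%, 0.384% and 0.00913% of windows. Among the windows shown, a GC-rich and a GC-poor one were found on each side, but the side of Nadk depends on the scaling, as given below. Of the windows not shown, that of the upstream Nadk start had a GC content of 46.8%. The Nmrk1 window had 69.2%, and those of the Nmnat1 starts had 69.2% and 67.6%.

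Libraries held 25919138 to 35131720 counts in kidney and 26084473 to 34806035 in liver. Levels are given as CPM, the counts of a gene relative to the library size after TMM scaling over all 19 libraries. The tissues matched their labels: the hepatocyte gene Alb was at 77200 to 104000 CPM in livers and at 3.65 to 30.5 CPM in kidneys, and the kidney tubule gene Umod at 1470 to 2480 CPM in kidneys and at most 0.0413 CPM in livers. The targeted gene H2afy was at 36.1 to 44.4 CPM in knockout and 48.8 to 67.1 CPM in wild-type kidneys, and at 59.6 to 72.8 and 73.8 to 121 CPM in the livers. The lowest wild-type value in each tissue belonged to the library labelled wild-type 24. In liver its 73.8 CPM lay close to the highest knockout, at 72.8 CPM, while the other wild types were at 121, 109 and 103 CPM. In kidney the other wild types were at 61.7 to 67.1 CPM. Whether the genotype of mouse 24 matches its label was not tested. The count covers the whole gene and not the deleted exon alone, so it cannot check the isoform. In whole tissue, fewer cells of a type and less RNA per cell cannot be told apart.

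The 2 tissues differed in the RNA levels of the members. Wild-type kidney, set against wild-type liver, had 24-fold more Bst1, 2.57-fold more Nampt, 1.77-fold more Nmrk1 and 1.6-fold more Nmnat3. Liver had 85.8-fold more Nnmt, 5.32-fold more Naprt, 2.31-fold more Nadk2 and 2.26-fold more Cd38, and under TMM scaling also 1.68-fold more Nadk and 1.5-fold more Nmnat1, which with library totals as the scaling turned to the kidney side. In edgeR's quasi-likelihood test all 10 members passed in wild types and in knockouts, at adjusted p of at most 0.00464 and 0.000576. The share of all tested genes that passed was 71.9% in wild types and 74.7% in knockouts, so that passing is common here. Of all genes 40.2% passed as higher in kidney and 31.7% as higher in liver in wild types, and 41.9% and 32.8% in knockouts. The same 4 members were higher in kidney and the same 6 higher in liver in the knockouts. With library totals 7 of the 10 passed in wild types, 5 higher in kidney and 2 in liver, and 9 passed in knockouts, 6 and 3. Of all 18549 genes, 12946 then passed as higher in kidney and 2372 as higher in liver in wild types, against 7454 and 5875 under TMM, and 13225 and 2407 in knockouts. That scaling moved the median kidney minus liver difference of all genes in wild types from 0.17 to 1.05 on the log2 scale. Relative to that median Nmnat1 was at -0.76 under TMM and -0.75 under library totals, and Nadk at -0.92 under each.

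**Figure D1:**
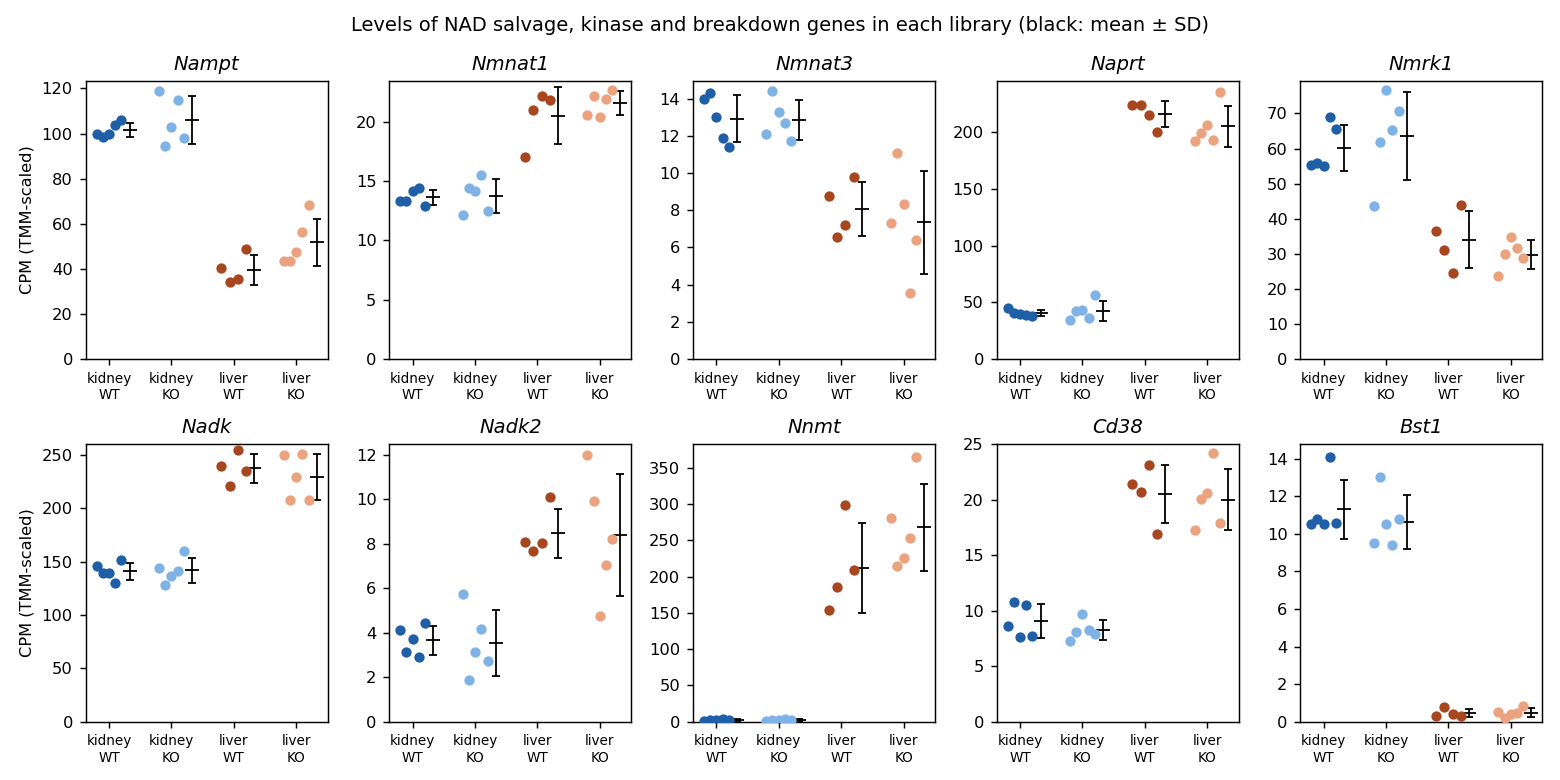
Level of each of the 10 members in every library, in CPM on TMM-scaled library sizes (linear axes from 0), for wild-type and knockout kidney and liver. Points are libraries in order of mouse number and black marks are the mean ± SD. Kidney and liver points are separate for 8 members and touch for Nmrk1 and Nadk2, and wild-type and knockout points overlap in every panel.

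Among the salvage enzymes, Nampt was evenly expressed in kidney and lower and more variable in liver. In order of mouse number, wild-type kidneys were at 99.9, 98.3, 99.6, 104 and 106 CPM and knockout kidneys at 119, 94.3, 103, 115 and 98.2 CPM. The livers of wild types were at 40.2, 34.1, 35.3 and 48.6 CPM and those of knockouts at 43.6, 43.5, 47.5, 56.3 and 68.1 CPM. Every kidney was above every liver. The coefficient of variation was 7.47% over the 10 kidneys and 22.9% over the 9 livers. The kidney minus liver difference was 1.36 (SE 0.13, edgeR adjusted p = 2.06e-09) in wild types and 1.03 (SE 0.12, edgeR adjusted p = 4.57e-08) in knockouts on the log2 scale.

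Naprt, the entry point for nicotinic acid, showed the reverse. Wild-type kidneys held 45.2, 40.8, 39.5, 39.0 and 38.0 CPM and knockout kidneys 34.3, 42.0, 43.5, 35.9 and 56.3 CPM. Wild-type livers held 224, 224, 215 and 200 CPM and knockout livers 192, 199, 206, 193 and 235 CPM. The highest kidney, that of knockout mouse 18, was far below the lowest liver. The difference was -2.41 (SE 0.12, edgeR adjusted p = 8.66e-15) in wild types and -2.27 (SE 0.11, edgeR adjusted p = 1.18e-14) in knockouts. Exons of Naprt overlap those of Eef1d on the same strand, so reads of the overlap cannot be told apart and its count may be affected. Within a library, where no scaling enters, the Nampt level per kilobase of exon was a median of 1.17 times that of Naprt in wild-type kidney and 0.0797 times in wild-type liver, and 1.1 and 0.107 times in knockouts.

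Nmrk1 was at 55.0 to 69.0 CPM in wild-type and 43.5 to 76.6 CPM in knockout kidneys, against 24.6 to 43.8 and 23.7 to 34.9 CPM in the livers. The tissues overlapped only through the knockout kidney of mouse 13 (43.5 CPM) and the wild-type liver of mouse 24 (43.8 CPM). The difference was 0.82 (SE 0.16, edgeR adjusted p = 7.35e-05) in wild types and 1.10 (SE 0.15, edgeR adjusted p = 6.17e-07) in knockouts.

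Both NMNAT genes were expressed in each tissue and went in opposite directions. Nmnat3, the mitochondrial form, held 11.4 to 14.3 CPM in wild-type and 11.7 to 14.4 CPM in knockout kidneys and 6.57 to 9.77 CPM in wild-type livers. Knockout livers were at 7.31, 11.1, 8.36, 3.54 and 6.41 CPM, the widest relative spread of a salvage enzyme in any group (coefficient of variation 37.6%). Nmnat1, the nuclear form, was at 12.9 to 14.4 and 12.1 to 15.5 CPM in wild-type and knockout kidneys and at 17.0 to 22.2 and 20.4 to 22.7 CPM in the livers, a wild-type difference of -0.59 (SE 0.10, edgeR adjusted p = 1.55e-05) that became 0.30 with library totals. Within a library the Nmnat1 level per kilobase of exon was a median of 1.8 times that of Nmnat3 in wild-type kidney and 4.38 times in wild-type liver, and the library ranges, 1.53 to 2.0 and 3.19 to 5.27, did not overlap. Which of the 2 was higher in kidney depends on the length used. Per kilobase of coding sequence Nmnat3 averaged 17.4 CPM and Nmnat1 15.8 CPM in wild-type kidney, with overlapping ranges.

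The NAD kinases were both higher in liver under TMM scaling, with Nadk turning to 0.14 in wild types and 0.23 in knockouts under library totals. Nadk, the cytosolic enzyme, was at 130 to 151 CPM in wild-type and 128 to 160 CPM in knockout kidneys, and at 221 to 254 and 208 to 251 CPM in the livers. Nadk2, the mitochondrial enzyme, was at 2.90 to 4.44 and 1.87 to 5.75 CPM in the kidneys and at 7.70 to 10.1 and 4.77 to 12.0 CPM in the livers. Its tissue ranges overlapped in the knockouts, between the kidney of mouse 13 at 5.75 CPM and the liver of mouse 15 at 4.77 CPM. Under library totals the Nadk2 difference fell from -1.21 to -0.33 in wild types and no longer passed. Per kilobase of exon the Nadk level was a median of 51.2 times that of Nadk2 in wild-type kidney and 39.8 times in wild-type liver.

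Nnmt, the nicotinamide methyltransferase, had the largest tissue difference of the 10 members. Wild-type kidneys held 1.60, 2.75, 2.40, 3.72 and 1.83 CPM and knockout kidneys 1.40, 1.84, 2.80, 3.64 and 2.70 CPM. Wild-type livers held 154, 186, 299 and 209 CPM and knockout livers 281, 214, 226, 253 and 365 CPM. The lowest liver was far above the highest kidney, with a difference of -6.42 (SE 0.29, edgeR adjusted p = 7.16e-14) in wild types and -6.76 (SE 0.30, edgeR adjusted p = 2.77e-14) in knockouts. The kidney counts were 60 to 168 reads per library. Per kilobase of exon the Nampt level was a median of 13 times that of Nnmt in wild-type kidney and 0.0647 times in wild-type liver. The gene of the enzyme that recycles nicotinamide had the higher level of this pair in every kidney and the lower one in every liver.

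Cd38 and Bst1, neighbouring genes on chromosome 5 that encode related NAD glycohydrolases, had opposite tissue patterns. Bst1 held 10.5, 10.8, 10.5, 14.1 and 10.6 CPM in wild-type and 9.51, 13, 10.5, 9.43 and 10.8 CPM in knockout kidneys, and 0.179 to 0.832 CPM in the livers, which is 4 to 17 reads per library. Its exons overlap those of Fbxl5 on the opposite strand, and no source used here says whether counting used the strand, so the reads of this pair cannot be told apart. Cd38 held 7.64 to 10.8 CPM in wild-type and 7.27 to 9.71 CPM in knockout kidneys, and 16.9 to 23.1 and 17.3 to 24.2 CPM in the livers. The wild-type differences were 4.59 (SE 0.27, edgeR adjusted p = 3.46e-13) for Bst1 and -1.18 (SE 0.13, edgeR adjusted p = 4.18e-08) for Cd38, and the latter was -0.29 and did not pass under library totals. Within a library the Cd38 level per kilobase of exon was a median of 0.635 times that of Bst1 in wild-type kidney and 46.0 times in wild-type liver. Bst1 is at chr5:43818885-43843986 and Cd38 at chr5:43868553-43912375 on the plus strand of GRCm38.

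**Figure D2:**
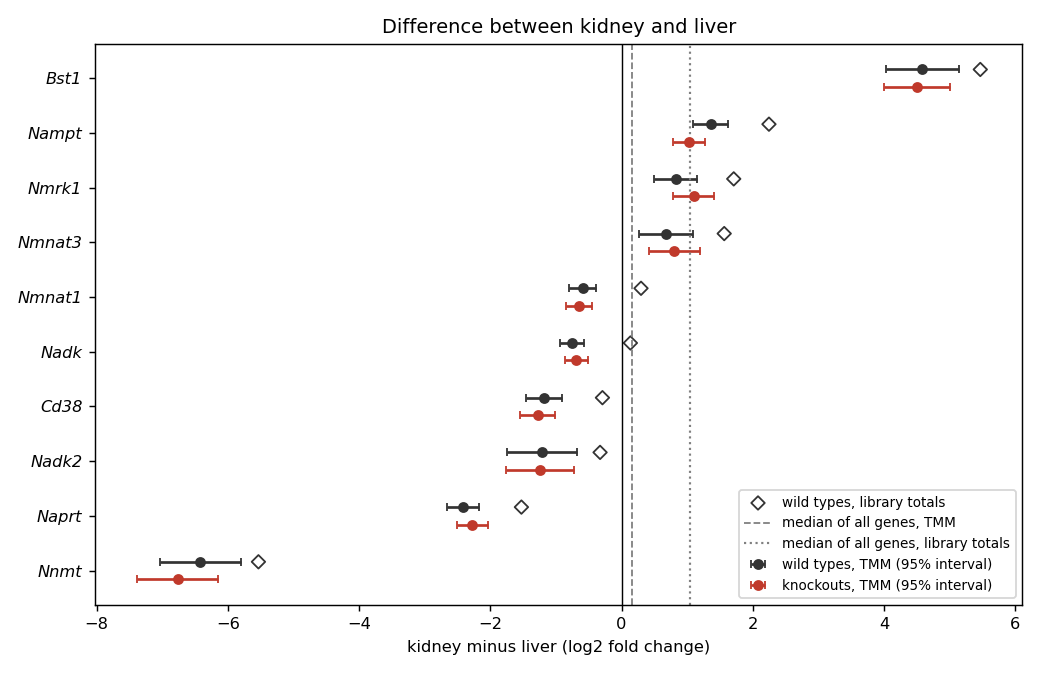
Kidney minus liver difference of each member on the log2 scale, in wild types (black) and knockouts (red), with 95% intervals from the edgeR fit of 19 libraries. Open diamonds give the wild-type value with library totals as the scaling, and vertical lines the median of all genes under each scaling. Nmnat1 and Nadk lie left of 0 under TMM and right of it under library totals, while each keeps its distance from the matching median.

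Over all 19 libraries the kidney and liver ranges did not overlap for 8 of the 10 members, the exceptions being Nmrk1 and Nadk2. The same held for 50.8% of all genes tested.

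Levels of different genes compare only per length, here as CPM per kilobase of all annotated exons. In wild-type kidney Nadk led at 37.6 ± 2.11 (SD, n = 5), followed by Nampt at 20.1 ± 0.657, Naprt at 17.3 ± 1.2 and Nmrk1 at 16.3 ± 1.8, of which Naprt and Nmrk1 overlapped. Nmnat1 (4.49), Bst1 (3.4), Nmnat3 (2.58), Cd38 (2.33), Nnmt (1.56) and Nadk2 (0.715) came after them, with overlap between Nmnat3 and Cd38 and between Cd38 and Nnmt. In wild-type liver Nnmt led at 135 ± 39.4 CPM per kilobase (SD, n = 4), then Naprt at 92.1 ± 4.85 and Nadk at 63.3 ± 3.7, each apart from the next. Nmrk1 (9.23), Nampt (7.83), Nmnat1 (6.75) and Cd38 (5.28) overlapped from neighbour to neighbour, followed by Nadk2 (1.66) and Nmnat3 (1.61), which also overlapped, and Bst1 (0.141). The most abundant member per length was thus Nadk in kidney and Nnmt in liver, also when coding length or the longest transcript was used, while Nmrk1 then stood above Nampt in all 4 groups. In the kidneys of both genotypes Nmnat3 then stood above Nmnat1, with overlapping ranges. With coding length Nadk also stood above Naprt in the livers, at 175 against 134 CPM per kilobase in wild types and 170 against 127 in knockouts, with ranges apart. The order was the same in knockout kidney, and in knockout liver only Nampt and Nmrk1 changed places, which overlapped there too.

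Loss of macroH2A1.1 changed none of the 10 members past the threshold. The targeted gene H2afy, counted as a whole, did not pass either. Its log2 difference was -0.58 in kidney (edgeR adjusted p = 0.135) and -0.61 in liver (edgeR adjusted p = 0.384). A change of that size can thus be missed here. In kidney 0 of 10 passed in edgeR, against 0.00579% of all 17269 genes tested, and 0 had an unadjusted p under 0.05, against 2.95% of all genes. In liver 0 of 10 passed, against 0% of 14591 genes, and 1, Nampt, had an unadjusted p under 0.05, against 4.17% of all genes. The difference of the knockout effect between tissues passed for 0 of 10, against 0% of 18549 genes, and 0 members were under an unadjusted p of 0.05, against 4.12%. DESeq2 and limma voom also called 0 members in each of the 3 comparisons. The median knockout minus wild-type difference of the members was 0.01 in kidney and -0.02 in liver on the log2 scale, beside 0.01 and 0.00 over all genes tested. Wild-type and knockout ranges overlapped for each of the 10 members in both tissues, where 0.544% of genes in kidney and 1.62% in liver had ranges that did not.

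**Figure D3:**
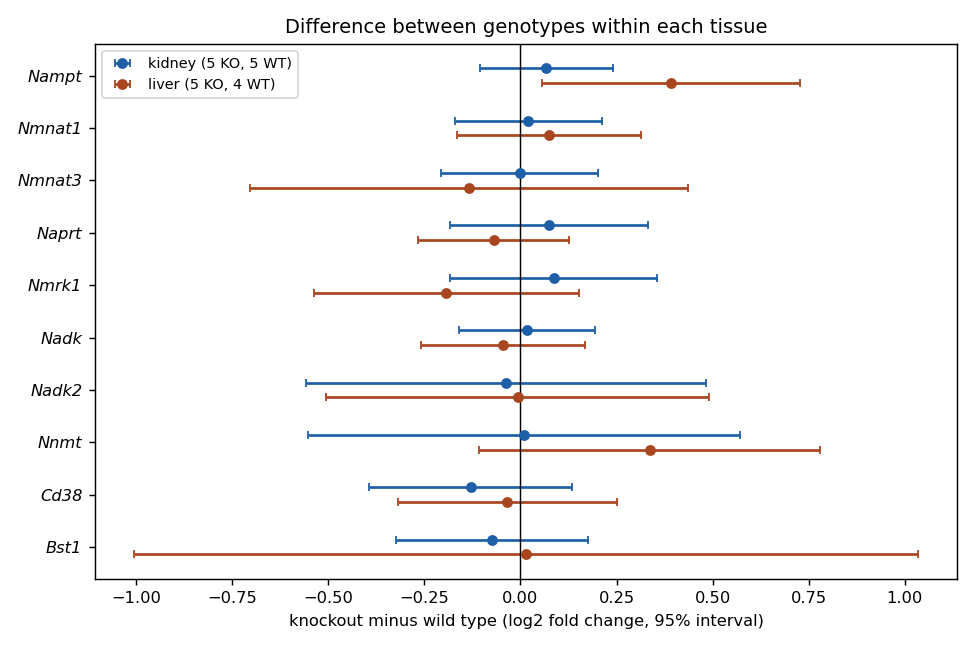
Knockout minus wild-type difference of each member on the log2 scale in kidney (blue) and liver (orange), with unadjusted 95% intervals from the edgeR fit of each tissue. All kidney intervals include 0. Nampt in liver is the only interval that does not, and it did not pass after adjustment.

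The intervals bound what the data allow. The narrowest in kidney were -0.11 to 0.24 for Nampt around 0.07, -0.16 to 0.20 for Nadk around 0.02, and -0.17 to 0.21 for Nmnat1 around 0.02. Those of Naprt (-0.18 to 0.33), Nmrk1 (-0.18 to 0.36), Nmnat3 (-0.21 to 0.20), Bst1 (-0.32 to 0.18) and Cd38 (-0.39 to 0.13) were wider. Nadk2 (-0.56 to 0.48) and Nnmt (-0.55 to 0.57), with the fewest kidney reads, had the widest. All 10 kidney intervals lay within a 1.5-fold change in either direction, those of Nadk2 and Nnmt only just.

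In liver the Nampt values of knockouts were 43.6, 43.5, 47.5, 56.3 and 68.1 CPM and those of wild types 40.2, 34.1, 35.3 and 48.6 CPM. Mice 16 and 18 lay above every wild type, and every knockout lay above the 3 lowest wild types. The difference was 0.39 (SE 0.16, 95% interval 0.06 to 0.73), or 1.31-fold, with an edgeR unadjusted p = 0.026 and adjusted p = 1. Over the alternatives it ran from 0.28 to 0.50 with adjusted p from 0.376 to 1. Without mouse 18 it was 0.28, and with the library labelled wild-type 24 left out 0.50. Markers of other cell types were read in the same livers. All 5 tested skeletal muscle markers of 6 had higher values in knockouts, each at an unadjusted edgeR p under 0.05, with a summed level of 1.57 to 19.8 CPM against 1.72 to 3.42 CPM in wild types. All 8 tested myeloid markers of 9 had lower values (220 to 316 against 262 to 351 CPM), as had all 8 of fibroblasts and stellate cells (267 to 341 against 325 to 377 CPM). None of these markers passed after adjustment or was at 0 in every liver of a group. Over the 9 livers Nampt correlated with the summed markers at r = 0.555 for skeletal muscle, -0.613 for myeloid cells and -0.076 for fibroblasts and stellate cells. It was at -0.708 for adipocyte markers and -0.684 for those of B and T cells. For the hepatocyte markers r was 0.578, at 0.882 within knockouts and -0.078 within wild types. Their sum was highest in mouse 18, at 165000 CPM, against 127000 to 141000 CPM in the other livers. None of these relations passed after adjustment, and the part of the markers in the Nampt knockout difference was not tested. The kidney value was 0.07, and the test of the difference between tissues gave 0.33 (SE 0.17, edgeR adjusted p = 1).

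Nnmt in liver was the next in size. Knockout livers averaged 268 ± 60.1 CPM (SD, n = 5) and wild-type livers 212 ± 62.1 CPM (SD, n = 4), a difference of 0.34 (SE 0.20, 95% interval -0.11 to 0.78, edgeR adjusted p = 1). It was 0.21 without mouse 18 or without mouse 19 and 0.55 without mouse 22, so 1 library moved the value by over 1.5 times. The remaining liver differences ran from -0.19 for Nmrk1 (95% interval -0.54 to 0.15) to 0.07 for Nmnat1 (-0.16 to 0.31). These 2, Naprt (-0.27 to 0.13), Nadk (-0.26 to 0.17), Nadk2 (-0.51 to 0.49) and Cd38 (-0.32 to 0.25) had intervals within 1.5-fold, while Nmnat3 (-0.70 to 0.44) did not, and that of Bst1 (-1.01 to 1.04), with its few reads, reached 2-fold in each direction.

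A mouse whose kidney had much Naprt also tended to have much in its liver. Over the 9 mice with both tissues the log2 CPM values correlated with Pearson's r = 0.822 (exact permutation p = 0.0034, adjusted over the 10 members p = 0.034) and Spearman's rho = 0.817 (exact permutation p = 0.0108, adjusted p = 0.108). Mouse 18 was highest in both tissues, at 56.3 and 235 CPM, and mouse 13 lowest in both, at 34.3 and 192 CPM. Without the 2 mice farthest from the kidney median r was 0.618, and of deviations from the genotype means it was 0.927 (exact permutation p = 0.000347, adjusted p = 0.00347). Nmrk1 had r = 0.546 (exact permutation p = 0.125, adjusted p = 0.625), and 0.687 for deviations (exact permutation p = 0.0101, adjusted p = 0.0505). The other 8 members had r from -0.458 for Bst1 to 0.318 for Cd38, with adjusted exact permutation p of at least 0.67. Over all genes the deviations of a mouse's kidney and liver also correlated, at r = 0.105 to 0.484 across 11851 genes. For most of the 9 mice, however, the kidney correlated best with the liver of another mouse.

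**Figure D4:**
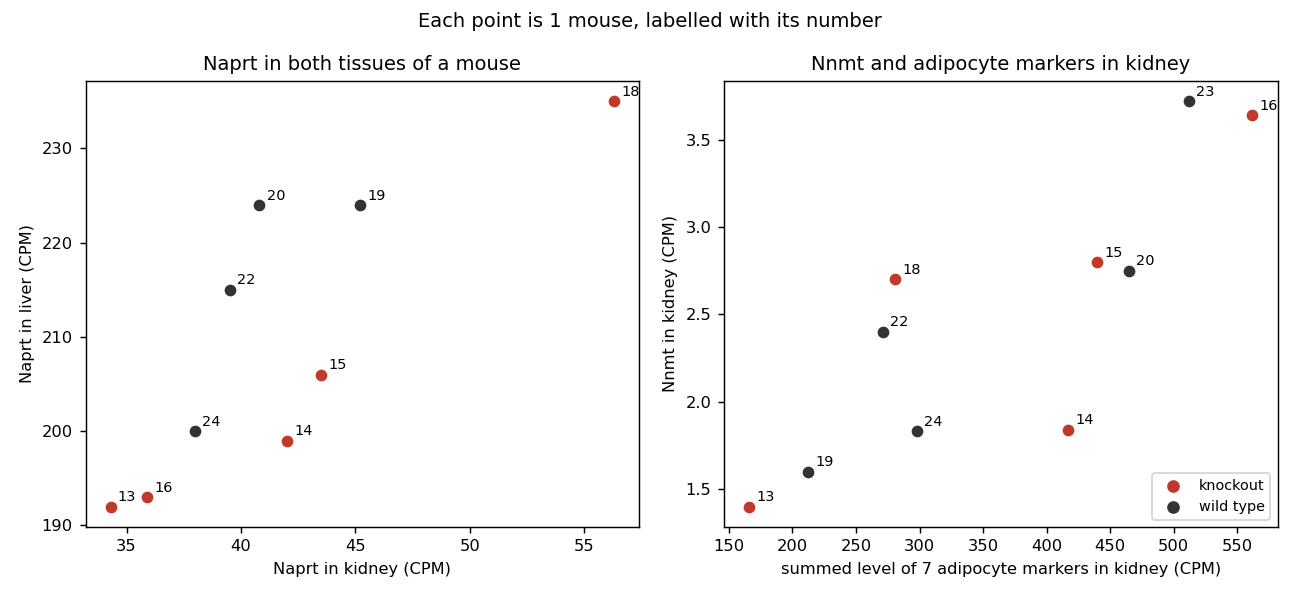
Left, Naprt in kidney (x axis) and liver (y axis) of the 9 mice with both tissues, in CPM. Right, the summed level of 7 adipocyte markers (x axis) and Nnmt (y axis) in the 10 kidneys, in CPM. Points carry the mouse number, red for knockouts and black for wild types; mouse 18 is highest and mouse 13 lowest in both Naprt values, and mouse 13 is lowest in both kidney measures on the right.

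Of the members in kidney, Nnmt had the highest correlation with the summed fat cell markers, 1 of 180 relations computed, and it did not pass after adjustment. The summed level of Adipoq, Plin1, Cidec, Fabp4, Cfd, Lep and Adrb3 ran from 166 to 562 CPM in knockout and 212 to 512 CPM in wild-type kidneys, with Cfd and Fabp4 the most abundant. Its log2 value correlated with that of Nnmt over the 10 kidneys at r = 0.826 (permutation p = 0.00437) and rho = 0.879 (permutation p = 0.00199), at 0.78 within knockouts and 0.9 within wild types, and at 0.617 without the 2 farthest libraries. Adjusted over the 180 relations of members and marker lists p was 0.377 for r and 0.26 for rho, so the relation did not pass, and its part in the kidney level of Nnmt was not tested. With the same markers r was 0.774 for Nmnat1, 0.664 for Nmrk1 and 0.653 for Cd38, and none of the other relations passed. Of 320 relations with clock genes none passed either, with the smallest adjusted permutation p at 0.644 for r and 0.125 for rho. In size the largest r was that of Nmnat3 with Tef in liver, at -0.83, and the largest rho that of Naprt with Clock in kidney, at -0.927.

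By the correlation of deviations from the group means over the 19 libraries, among 11850 genes, the 2 genes most like Nnmt were the lipid droplet gene Cidec (r = 0.85) and Golph3 (0.841). Cidec is itself among the adipocyte markers summed above, so its likeness is not independent of that relation. The genes most like Nampt were Wdr75 (0.864) and Crk (0.863), and those most like Naprt were Abhd17a (0.94) and Pex14 (0.939). Nmrk1 was nearest to Tra2a (0.856) and Adora2a (0.816), Nmnat1 to Ftsj1 (0.792) and Tmem129 (0.731), and Nmnat3 to Sipa1l2 (0.874) and Pkp3 (0.87). The likeness of Nmnat3 and Sipa1l2 came from the livers, with r = 0.948 there and -0.297 in the kidneys. Nadk was nearest to Rbsn (0.841) and Nucb1 (0.835), Nadk2 to Ptprg (0.892) and Pdxk (0.881), and Cd38 to 2810410L24Rik (0.772) and Grap (0.771). These values were chosen as the highest of many, and Bst1, under 1 CPM in the livers, did not meet the minimum of 1 CPM in both tissues.

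The other genes of NAD metabolism were read from a list of 57, of which 53 were tested between tissues. In wild types 17 were higher in kidney and 28 higher in liver (edgeR), and under library totals 27 and 18, a shift that all genes showed too. The list's median was -0.35 under TMM and 0.52 under library totals, beside 0.17 and 1.05 over all genes.

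The tested genes of the steps around Nnmt were on the liver side. All 7 tested of the 8 listed genes of the methylation route were higher in liver under every scaling, with a median kidney minus liver difference of -7.51 (TMM) and -6.62 (library totals). The remaining listed gene, Mat2a, was not analysed here, so the whole route is not covered. The tested genes include Mat1a, which makes the methyl donor S-adenosylmethionine, Gnmt and Pemt, which use it, Ahcy, which clears the product, and Aox3 and Aox1, of the aldehyde oxidases that oxidise methylated nicotinamide. Gnmt averaged 16.5 CPM in wild-type kidney and 3000 CPM in wild-type liver, and Ahcy 238 and 1730 CPM.

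RNA of the genes for de novo synthesis from tryptophan was also higher in liver, for 8 of 9 tested genes under TMM and 6 of 9 under library totals, where Nadsyn1 and Afmid had the opposite sign. Tdo2, the entry enzyme of the route in liver, averaged 0.172 CPM in wild-type kidney and 1690 CPM in wild-type liver, and Qprt, which feeds quinolinate into NAD, 73.8 and 339 CPM. Acmsd, which diverts the pathway away from NAD, was the exception, at 145 CPM in kidney and 52.9 CPM in liver.

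The remaining salvage and transport genes were on the kidney side for 6 of 11 tested genes and on the liver side for 3, the same counts under TMM and library totals in wild types. Of all 18549 genes tested, 7454 passed as higher in kidney and 5875 in liver under TMM, and 12946 and 2372 under library totals. Most genes were thus on the kidney side under library totals, so these counts show no kidney lean of the list there. Slc5a8 and Slc22a13, transporters that carry nicotinate, averaged 176 and 69.6 CPM in wild-type kidney and had 0 counts in the wild-type livers, which allows up to 3 reads per library. Nt5e, the surface nucleotidase CD73, averaged 88.3 CPM in kidney and 4.97 CPM in liver. Slc29a1, a nucleoside transporter, was at 28.4 and 235 CPM. Of the enzymes that turn over NADPH, 7 of 10 were higher in kidney, among them G6pdx (24.8 and 4.99 CPM) and Idh2 (370 and 160 CPM), and 3 higher in liver, led by Aldh1l1 (357 and 1600 CPM); of the 3, Idh1 and Mthfd1 turned to the kidney side under library totals.

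Consumers of NAD differed least of the 5 groups of other genes. Of 16 tested, 3 were higher in kidney and 7 in liver under TMM, and 11 and 1 under library totals, where 9 changed sign, so no direction can be given for them. The median absolute difference under TMM was 0.35, beside 0.94 over all genes.

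**Figure D5:**
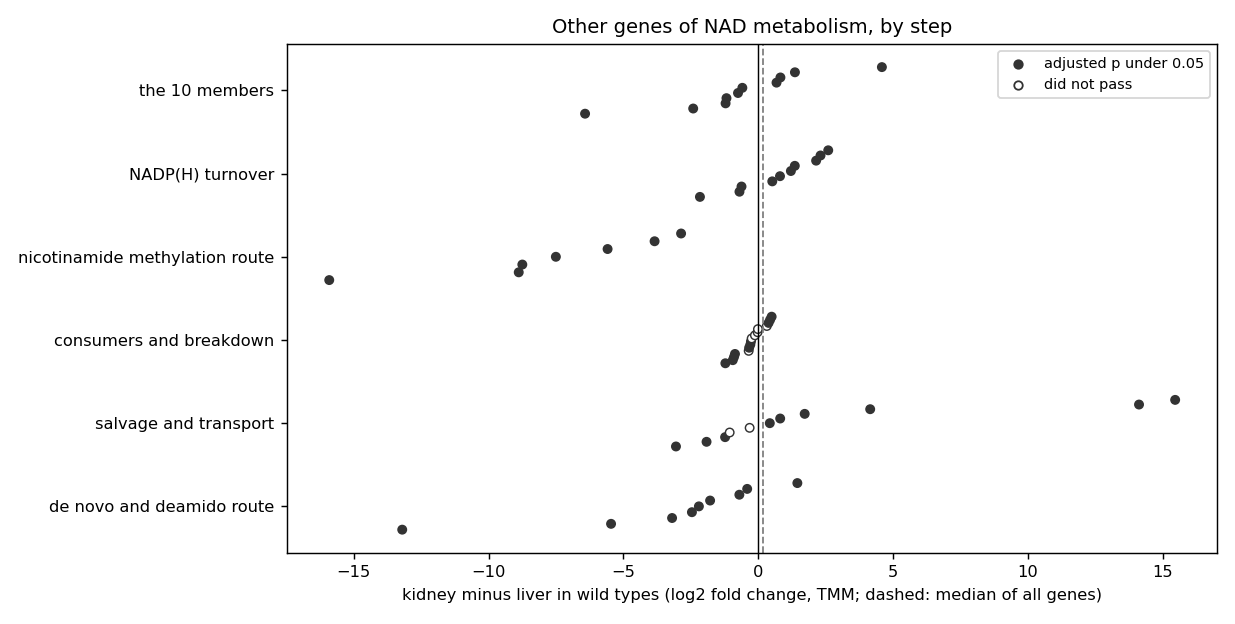
Kidney minus liver difference in wild types (log2 fold change under TMM scaling) of the 10 members and of the other NAD genes by step. Each point is a gene, filled where edgeR's adjusted p was under 0.05; the dashed line is the median of all genes. The tested genes of the methylation route, which leave out Mat2a, all lie on the liver side, and the consumers run from -1.22 (Parp14) to 0.50 (Tnks). The 2 rightmost points, Slc5a8 and Slc22a13, have 0 counts in wild-type liver, so their fitted values are no measure of size.

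None of the other NAD genes passed for the knockout. In kidney 51 were tested, with 1 at an unadjusted edgeR p under 0.05, and in liver 48, with 1. Tdo2 had the smallest p in kidney. Knockout kidneys averaged 0.479 ± 0.265 CPM (SD, n = 5) and wild-type kidneys 0.172 ± 0.0723 CPM (SD, n = 5), a difference of 1.45 (SE 0.44, edgeR adjusted p = 0.999) on 4 to 38 reads per library. Alb, a marker of hepatocyte RNA, was at 30.5 CPM in the kidney of knockout mouse 13. It was at 3.65 to 5.35 CPM in the other knockout kidneys and at 3.85 to 7.01 CPM in wild types. The sum of the 8 listed hepatocyte markers did not set the kidney of mouse 13 apart, at 901 CPM. Knockout kidneys ran from 813 to 1050 CPM in this sum and wild types from 822 to 956 CPM. Of the 6 markers tested in kidney, 5 had higher and 1 lower values in knockouts, 0 at an unadjusted edgeR p under 0.05. The part of hepatocyte RNA in the Tdo2 value was not tested. Ahcy followed at -0.13 (SE 0.08, edgeR adjusted p = 0.999). In liver Aox3, from the route that disposes of the product of Nnmt, was at 522 CPM in knockouts and 672 CPM in wild types, a difference of -0.36 (SE 0.14, edgeR adjusted p = 1), and Acmsd at 40.8 and 52.9 CPM, a difference of -0.37 (SE 0.19, edgeR adjusted p = 1). For the difference of the knockout effect between tissues the smallest p were those of Tdo2, at -1.46 (SE 0.41, edgeR adjusted p = 0.84), and Mat1a, at -2.96 (SE 1.27, edgeR adjusted p = 1), whose kidney means were 0.288 CPM in knockouts and 0.0327 CPM in wild types.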

How the data were processed

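Raw counts, not normalized, were deposited for 26506 genes in 19 libraries, each gene with a sum of at least 10 counts. Per the submitters' processing notes, which give no versions, Trim Galore, STAR, featureCounts and DESeq2 were used with the build GRCm38. Symbols and lengths came from GENCODE mouse release 21, which matched 26408 genes. Upstream sequences came from RefSeq on GRCm38.p6.

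The knockout effect was tested in each tissue with edgeR 4.0.16 (R 4.3.3): quasi-likelihood test with robust dispersion, TMM scaling, filterByExpr at a minimum count of 10, two-sided p adjusted by Benjamini-Hochberg over all genes tested, threshold 0.05. Tissue differences and the interaction came from 1 fit of 19 libraries. The fits were also run on simulated counts with known changes, and the share recovered is not given here. No label says in words that a group's libraries are separate animals, so the p-values cover the spread among libraries, which may be technical. Title numbers were taken as mouse numbers. The deviations of kidney and liver with the same number correlated at r = 0.105 to 0.484 in 9 pairs. For only 4 of the 9 mice did the kidney correlate best with its own liver. The pairing was therefore taken from the titles and is not shown by these values. Correlations used log2 CPM with a prior count of 2, and all orders of 9 mice or 100000 random orders of 10 libraries. Marker sums had 0.1 CPM added before the logarithm.

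The members and lists were chosen with earlier results of these data known. All 10 members are named, and of the other NAD genes those that passed or, with none, the 2 with the smallest p; among those that passed between tissues, examples were picked after their values were seen. Alternatives were DESeq2 1.42.0, limma 3.58.1 voom with sample weights, other scalings and filters, 1 fit of all libraries, a fit per genotype, the mouse as a block, and leaving out mice. The list entries Mat2a and Mcart1 were not analysed here.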

Additional observations from a re-analysis of the deposited data

Results flagged for a closer look

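In 2 of 40 checked combinations of a member and a group, 1 library stood far from the others of its group. Chance alone gives about 1 in 20 such combinations. Nadk2 was at 10.1 CPM in the wild-type liver of mouse 24, and the nearest other wild-type liver was at 8.07 CPM. The knockout livers ran from 4.77 to 12.0 CPM, so the value lay inside their range. Bst1 was at 14.1 CPM in the wild-type kidney of mouse 23, and the nearest other wild-type kidney was at 10.8 CPM. Without mouse 23 the knockout difference of Bst1 in kidney was 0.02 in place of -0.07 on the log2 scale.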

How the results depend on the processing

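No alternative called a member for the knockout in kidney, in liver or between tissues. Between tissues all 10 members passed under each alternative except library totals, where 7 passed in wild types and 9 in knockouts. With the mouse number as a replicate block 0 members passed for the difference of the knockout effect and 10 and 10 passed between tissues, and the block changed no call. Library totals turned the kidney minus liver difference of Nmnat1 to 0.297 in wild types and 0.275 in knockouts, and that of Nadk to 0.135 and 0.230.

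Small knockout differences changed sign. In kidney these were Nmnat3 with limma voom (0.005) and library totals (0.025), Nadk with limma voom (-0.026), Nnmt with no filter (-0.002) and in the fit of 19 libraries (-0.006), and, without mice 16 and 24 together, Nmnat1 (-0.042) and Nnmt (-0.251). In liver they were Bst1 with limma voom (-0.199) and library totals (-0.008) and, without both mice, Nmnat3 (0.146), Nadk2 (0.143) and Bst1 (-0.107). For the difference between tissues they were Nadk2 (-0.062) and Bst1 (-0.127) with limma voom and, without both mice, Nmnat3 (0.191), Cd38 (-0.007) and Bst1 (-0.044). The cause was not tested. Leaving out 1 mouse at a time gave ranges that cross 0: in kidney Nmnat3 -0.044 to 0.037, Nadk2 -0.292 to 0.122, Nnmt -0.170 to 0.207, Nmnat1 -0.029 to 0.059, Naprt -0.059 to 0.139, Nadk -0.039 to 0.053 and Bst1 -0.155 to 0.017. In liver they were Cd38 -0.116 to 0.030, Nadk2 -0.174 to 0.146, Nmnat3 -0.336 to 0.042, Nmnat1 -0.009 to 0.117 and Bst1 -0.128 to 0.384, over the 6 of 9 fits that tested it. Between tissues they were Nadk2 -0.193 to 0.153, Nmnat3 -0.280 to 0.046, Nadk -0.094 to 0.023, Bst1 -0.186 to 0.476 and Nmnat1 -0.020 to 0.106.

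Over all genes the knockout calls were 1 in kidney, 0 in liver and 0 between tissues in edgeR, and 15, 42 and 11 in DESeq2. Limma voom called 4, 5 and 0, no filter 4, 3 and 0, and the fit of 19 libraries 3 in kidney and 21 in liver. Without mice 16 and 24 together the counts were 12, 11 and 4, without mouse 16 10, 7 and 3, and without mouse 24 7, 5 and 1. Leaving out mouse 13, 14, 15 or 18 gave 2 in kidney, mouse 13 gave 1 in liver, and mouse 14 gave 1 between tissues. The 4 to 17 reads of Bst1 per liver limit what can be said of it there.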
